A study of Homo sapiens with 6 samples.

Results

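Cells recognise foreign or misplaced RNA and DNA with receptor proteins in the cytosol and in endosomes, and these receptors signal through kinases and interferon regulatory factors to switch on interferon genes. Secreted interferon binds its receptor, a complex of transcription factors that contains STAT2 and IRF9 enters the nucleus, and it binds interferon-stimulated response elements (ISREs) in front of a large family of interferon-stimulated genes whose products hinder viral replication. In tumour cells many of these genes are transcribed at a low level without infection, and the same sensors are known to respond to transcripts of endogenous retroviruses when DNA methylation is lost.

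The present results concern 50 such genes, nucleic acid sensors and interferon-stimulated genes, in PC-3 cells treated with S-adenosylmethionine (SAM), the methyl donor of cellular methyltransferases. The genes were given as a list of symbols, drawn up with earlier results of these data known, and all 50 were found by gene name among the 57396 genes of the count table. PC-3 is an established human prostate carcinoma cell line, so the data describe a single tumour line. RNA sequencing was performed on 3 libraries of PC-3 cells given 160 µM SAM for 5 days (SAM 1 to SAM 3) and 3 libraries of PC-3 cells given phosphate-buffered saline (PBS) for 5 days (control 1 to control 3). No other agent or genetic change is named for either group. Nothing in the labels says that the libraries came from separate cultures, so the spread behind the p-values is that of these libraries and may be no more than technical.

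The libraries held 9379258 to 28995160 counts. In the smallest library 3 counts correspond to 0.322 CPM (counts scaled to a common library size) and in the largest to 0.103 CPM, and a gene at 0 can be anywhere up to that level, counting error only. Control 1 and SAM 2 stood apart from the other 4 libraries. A single noncoding gene, CTD-2328D6.1, took 1.18% of the counts of control 1 and 1.56% of those of SAM 2 but at most 0.0636% elsewhere. SAM 3 differed in another way, with log2 levels that rose by 0.17 for each 10 percentage points of GC content, against slopes between -0.07 and -0.01 in the other libraries. The epithelial markers KRT8, KRT18, EPCAM and CDH1 summed to 2353 to 2908 CPM, and CDH1 among them fell from a mean of 365 to 267 CPM (log2 fold change -0.45 ± 0.11, edgeR adjusted p = 0.0298), while the luminal markers KLK2 and KLK3 had 0 counts in all libraries. The 7 leukocyte markers summed to 0.751 to 1.59 CPM in the controls and 1.85 to 2.20 CPM with SAM, all 7 with a count in at least 1 library. Of these only CD68 passed the filter on low counts, and it rose (log2 fold change 1.36 ± 0.36 SE, edgeR adjusted p = 0.0439). Their part in the results below was not tested. Of the 3 markers of plasmacytoid dendritic cells, the main interferon-producing leukocytes, CLEC4C and LILRA4 were at 0 throughout. The third, IL3RA, had 2 counts in control 3, 2 in SAM 3 and 0 in the other libraries.

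The levels of the 50 genes spanned several orders of magnitude. Levels between genes were compared as TPM, that is, counts divided by transcript length and scaled to a common sum. In the controls 7 genes exceeded 50 TPM, 18 lay between 10 and 50 TPM, 20 lay between 1 and 10 TPM, and 5 did not exceed 1 TPM. IFITM3, a membrane protein that blocks viral entry, was highest at 440 TPM in the controls. ISG15, a ubiquitin-like modifier that is attached to other proteins, followed at 230 TPM, and IFITM2, the neighbour of IFITM3, at 112 TPM. Next came the transcription factor IRF3 at 87.8 TPM and ADAR, which edits adenosines in double-stranded RNA, at 85.5 TPM. IRF3 and ADAR did not differ beyond their spread between the control libraries in that order. The genes with the lowest levels were MX2, RSAD2, APOL1, DHX58 and XAF1, and the last 4 had too few counts to be tested. XAF1 had 2 counts in all, both in control 3. The 50 genes together took 1676, 1601 and 1638 CPM in control 1, 2 and 3 and 1527, 1615 and 1546 CPM in SAM 1, 2 and 3. These sums overlapped between the groups, and 47.6 to 51.5% of each sum came from its 5 highest genes.

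**Figure D1:**
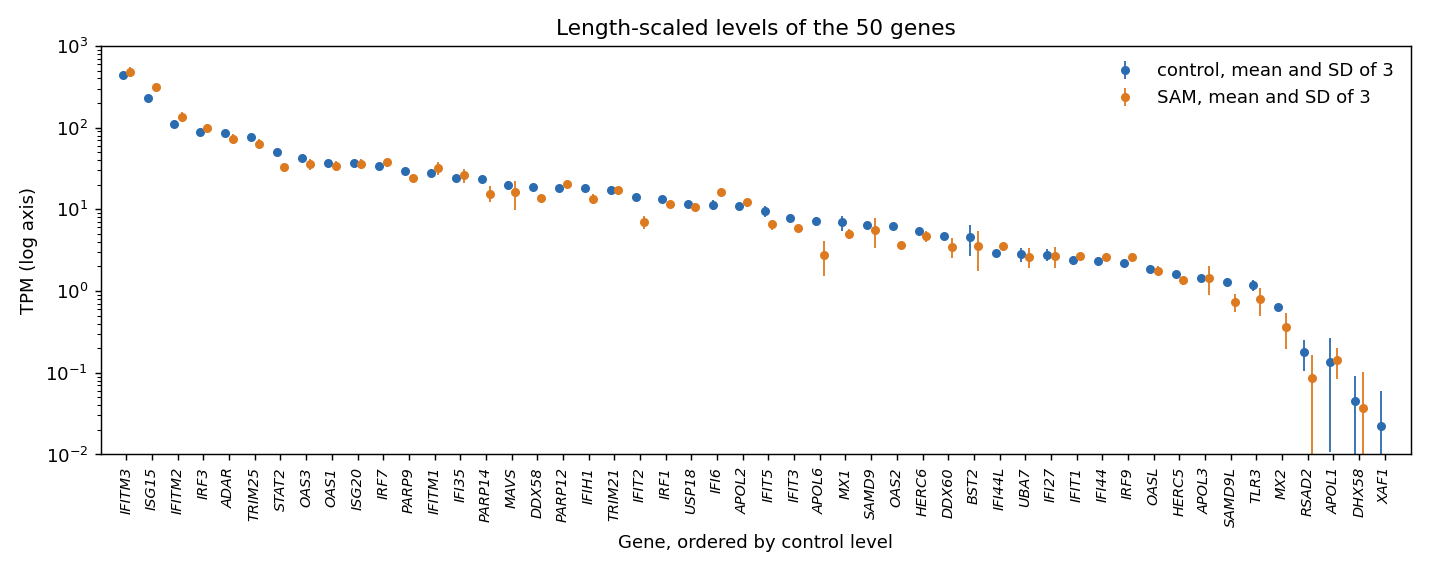
Length-scaled level (TPM, log axis) of the 50 genes in order of their control level, with points for the mean of the 3 control (blue) and 3 SAM (orange) libraries and bars for the SD, cut at the lower edge of the axis where the SD exceeds it. Levels run from 440 TPM for IFITM3 to 0.02 TPM for XAF1, whose SAM libraries hold no count and have no point.

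Of the 46 genes tested, 1 was higher and 6 were lower with SAM at an adjusted p under 0.05 (edgeR's quasi-likelihood test with Benjamini-Hochberg adjustment over all 15312 genes tested). ISG15 was the higher gene, and the lower genes were IFIT2, OAS2, STAT2, DDX58, SAMD9L and APOL6. Among all genes tested 10.4% were called, 5.19% higher and 5.24% lower, against 15.2% of the 46 genes, 2.17% higher and 13.04% lower. An unadjusted p under 0.05 was found for 18 of the 46 genes, or 39.1%, against 30.6% of all genes. The SAM and control libraries did not overlap in 21 of the 46 genes, which is 45.7% against 36.7% of all genes. SAM was above in 9, or 19.6% of the 46, against 17.9% of all genes, and below in 12, or 26.1%, against 18.8%. The log2 fold changes ranged from -1.27 to 0.63 with a median of -0.11, against -0.01 over all genes, and 21 were positive and 25 negative. Without control 1 and SAM 2 the median of the 46 genes was -0.0025. In bulk RNA, fewer cells that express a gene and less of its RNA per cell cannot be told apart. These counts and medians describe the list and were not tested against other lists.

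**Figure D2:**
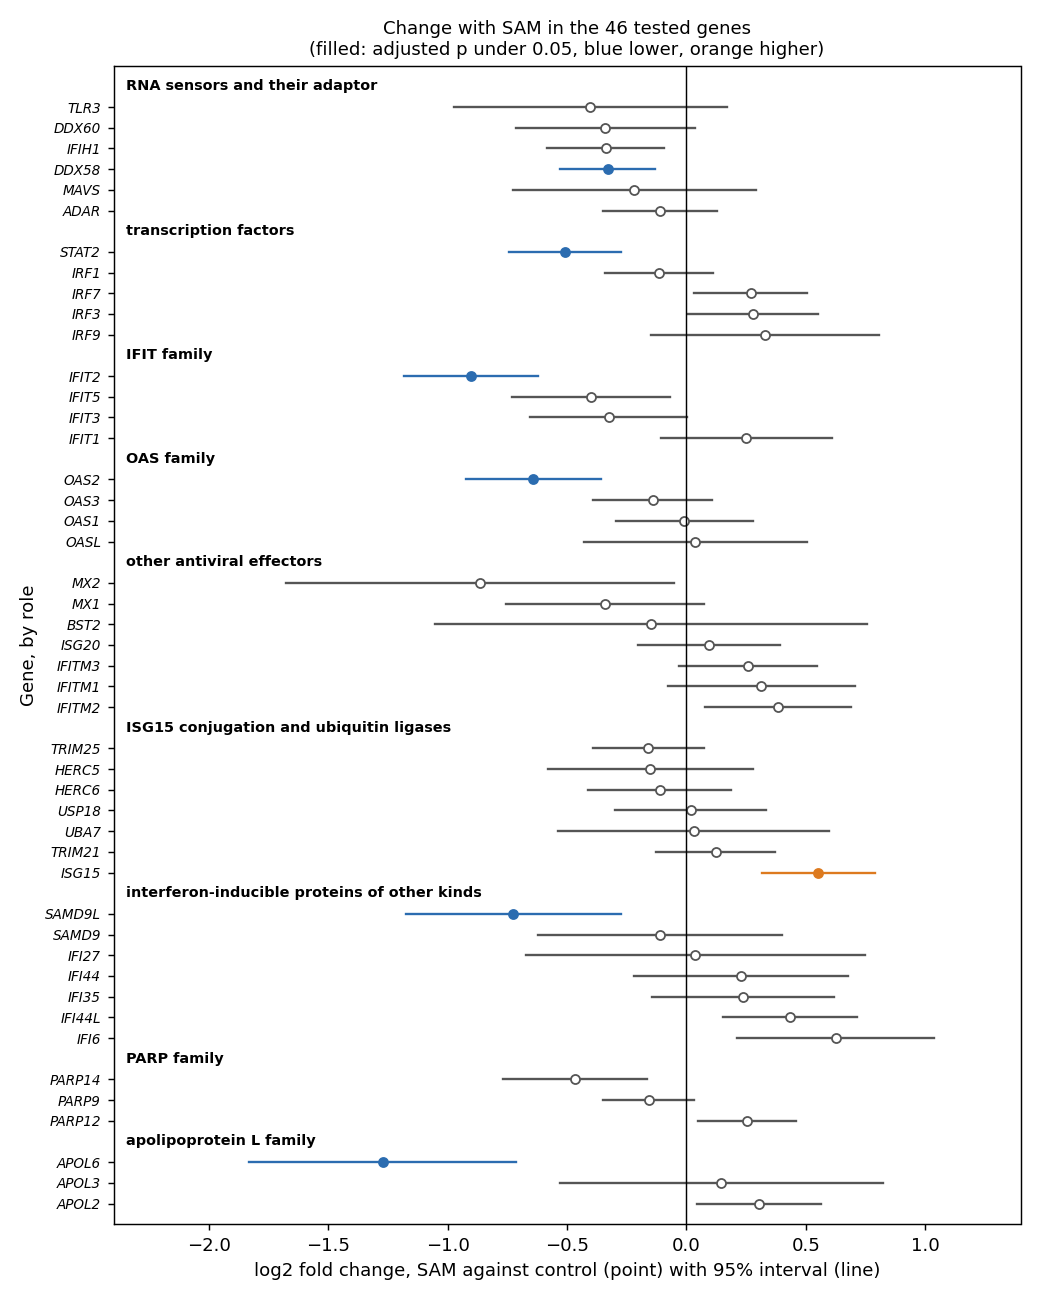
Log2 fold change of SAM against control (points) with the 95% interval (lines) for the 46 tested genes, grouped by role and ordered by change within each group. Filled blue points mark the 6 lower genes, the filled orange point marks ISG15, and the 39 open grey points did not pass the test.

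The RNA sensors were represented by DDX58, IFIH1, DHX58, DDX60 and TLR3, with the adaptor MAVS and the editing enzyme ADAR. Of the 6 tested, 1 was lower and none was higher, against 5.24% and 5.19% of all genes. The median log2 fold change was -0.33, against -0.01 over all genes, of which 7795 of 15312 were negative. All 6 log2 fold changes were negative with all libraries, but that of MAVS was 0.04 without SAM 3 and that of ADAR was 0.00071 with GC and length trends removed. DDX58 (ENSG00000107201, chromosome 9, 32455705 to 32526324, GRCh38) encodes RIG-I, which binds the triphosphate end of short double-stranded RNA. It stood at 37.9, 41.0 and 37.8 CPM in control 1, 2 and 3 and at 32.7, 30.5 and 29.6 CPM in SAM 1, 2 and 3. Every SAM library was below every control library, although the step was small. The log2 fold change was -0.33 ± 0.09 (SE) with an adjusted p of 0.0442. This call was absent without control 1, 2 or 3 or without SAM 1 or SAM 2, with adjusted p of 0.0569 to 0.175. IFIH1 encodes MDA5, the sensor of long double-stranded RNA, and stood at 32.0, 27.4 and 28.9 CPM in the controls and 21.7, 26.0 and 22.0 CPM with SAM. The groups did not overlap, and the log2 fold change of -0.34 ± 0.11 did not pass the test (adjusted p = 0.0740). Without SAM 2 it did (log2 fold change -0.42, adjusted p = 0.0264). In that fit 3233 of all genes were called, against 1598 with all libraries. ADAR stood at 268, 236 and 256 CPM in the controls and 227, 264 and 212 CPM with SAM, and the 95% interval of its log2 fold change ran from -0.35 to 0.13. MAVS, the mitochondrial adaptor of RIG-I and MDA5, is named here after its values were seen, because a single library set its spread. It was at 55.3 CPM in SAM 3 and at 94.8 to 120 CPM in the other 5 libraries.

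Among the 5 transcription factors 1 was lower and none was higher, against 5.24% and 5.19% of all genes. Their median log2 fold change was 0.27. STAT2 (ENSG00000170581, chromosome 12, 56341597 to 56360155) is the subunit of the interferon-activated complex that carries its activation domain. Its levels were 100, 98.4 and 98.3 CPM in control 1, 2 and 3 and 61.0, 75.6 and 72.2 CPM in SAM 1, 2 and 3. The controls lay close together and well above all SAM libraries. The log2 fold change was -0.51 ± 0.11 with an adjusted p of 0.0191. The adjusted p rose to 0.0701 to 0.0953 when control 1, 2 or 3 or SAM 1 was left out. Calls over all genes fell in the same fits, from 1598 to between 139 and 255. IRF3, which the sensing kinases activate, and IRF7, its inducible relative, had log2 fold changes of 0.28 ± 0.12 (adjusted p = 0.154) and 0.27 ± 0.11 (adjusted p = 0.122). IRF7 stood at 27.2 to 30.7 CPM in the controls and 32.0 to 39.9 CPM with SAM, without overlap, whereas IRF3 overlapped at 58.9 to 65.4 and 64.7 to 88.8 CPM. IRF3 passed the test without SAM 2 (log2 fold change 0.38, adjusted p = 0.0363). The deposited position of IRF3 overlaps that of BCL2L12, and reads of overlapping genes cannot be told apart where counting ignores strand.

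The 4 IFIT genes form a cluster on chromosome 10 and encode RNA-binding proteins with tetratricopeptide repeats that hold back the translation of viral RNA. They are textbook targets of the interferon-activated complex, and the promoters of 3 of them are shown here because the family did not move as a block. RefSeq promoter windows of 250 bases before to 50 bases after the start site (GRCh38.p14) were matched for 36 of the 50 genes. For IFIT2 no window was matched. The ISRE was searched on both strands as GAAA, any 2 bases and GAAA again, which reads TTTC, any 2 bases and TTTC on the opposite strand. Matches are in capitals, with the flanking bases in lower case, 5′ to 3′ on the strand of the gene.
IFIT1, chr10:89392492-89392544, plus strand: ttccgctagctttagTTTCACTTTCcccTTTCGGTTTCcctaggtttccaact
IFIT3, chr10:89327826-89327899, plus strand: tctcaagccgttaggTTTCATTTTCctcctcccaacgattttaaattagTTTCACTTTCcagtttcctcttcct
IFIT5, chr10:89414508-89414588, plus strand: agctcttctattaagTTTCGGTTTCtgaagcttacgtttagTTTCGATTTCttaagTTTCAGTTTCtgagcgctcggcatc
The windows of IFIT1 and IFIT3 held 2 matches each and that of IFIT5 held 3.

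All 4 IFIT genes had SAM and control libraries that did not overlap, 3 with SAM below and 1 with SAM above, and only IFIT2 passed the test. Over all genes tested the groups did not overlap in 36.7%, with SAM below in 18.8% and above in 17.9%, and 10.4% passed the test. IFIT2 (ENSG00000119922, chromosome 10, 89301955 to 89309276) stood at 21.3, 21.3 and 21.9 CPM in control 1, 2 and 3. With SAM it stood at 12.2, 12.8 and 9.64 CPM in SAM 1, 2 and 3. The fitted level with SAM was 0.536 of that in the controls. The log2 fold change of -0.90 ± 0.13 had an adjusted p of 0.00484, and it remained called in each of the 20 alternative settings tried, with log2 fold changes of -0.97 to -0.79 and adjusted p up to 0.0468. IFIT5 (ENSG00000152778, chromosome 10, 89414586 to 89421001) stood at 20.7, 15.7 and 15.2 CPM in the controls and 14.5, 12.1 and 11.9 CPM with SAM. Its lowest control was just above its highest SAM library, and the log2 fold change of -0.40 ± 0.15 did not pass the test (adjusted p = 0.108). IFIT3 had a log2 fold change of -0.33 ± 0.15 (adjusted p = 0.166). IFIT1 stood at 4.29, 5.40 and 4.11 CPM in the controls and 5.58, 5.50 and 5.48 CPM with SAM, with a log2 fold change of 0.25 ± 0.16 (adjusted p = 0.313). The deposited positions of IFIT1, IFIT2 and IFIT3 overlap that of LIPA, a lysosomal lipase, whose log2 fold change was 0.03 ± 0.11 (adjusted p = 0.882).

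The OAS family makes oligoadenylates on double-stranded RNA, which activate the nuclease RNase L, and OASL is its member without that activity. Of the 4 genes 1 was lower and none was higher, against 5.24% and 5.19% of all genes. OAS2 (ENSG00000111335, chromosome 12, 112978395 to 113011723) stood at 12.7, 12.4 and 13.4 CPM in control 1, 2 and 3 and at 7.44, 8.71 and 8.65 CPM in SAM 1, 2 and 3. The groups were clearly apart, with a log2 fold change of -0.64 ± 0.13 and an adjusted p of 0.0168. The adjusted p was 0.0647 to 0.0953 without control 1, 2 or 3 or SAM 1. OAS3, which had the highest length-scaled level of the family (42.4 TPM in the controls), stood at 134, 115 and 127 CPM in the controls and 112, 128 and 102 CPM with SAM. The groups of OAS3 overlapped, and the 95% interval of its log2 fold change ran from -0.39 to 0.11. The log2 fold changes of OAS1 and OASL were -0.01 ± 0.13 and 0.04 ± 0.21, and the signs of OAS1, OASL and OAS3 changed in some of the alternatives.

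Among the other antiviral effectors, which include the dynamin-like GTPases MX1 and MX2, the nuclease ISG20, the tether BST2 and the IFITM proteins, none of the 7 tested genes passed the test in either direction at an adjusted p under 0.05. An unadjusted p under 0.05 was found for 28.6% of them, against 30.6% of all genes. MX2 was rare, at 0.965, 0.999 and 0.979 CPM in the controls and 0.310, 0.846 and 0.660 CPM with SAM, and its log2 fold change of -0.86 ± 0.36 had an adjusted p of 0.143. IFITM2 stood at 46.4, 56.5 and 48.4 CPM in the controls and 61.5, 56.5 and 79.8 CPM with SAM. IFITM3 stood at 113, 126 and 122 CPM in the controls and 140, 121 and 171 CPM with SAM. In both genes SAM 3 was highest and SAM 2 lay within the range of the controls. Their log2 fold changes were 0.38 ± 0.14 (adjusted p = 0.0970) and 0.26 ± 0.13 (adjusted p = 0.206), and without SAM 2 both passed the test at 0.48 (adjusted p = 0.0361) and 0.37 (adjusted p = 0.0396). The IFITM genes are near-identical neighbours on chromosome 11, and IFITM1 and IFITM2 overlap in position, so their separate values are uncertain.

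ISG15 was the only gene of its group of 7 to pass the test, which 10.4% of all genes passed. The group comprises the modifier ISG15 itself, its activating enzyme UBA7, its ligases HERC5 and TRIM25, the related HERC6, the protease USP18 that removes it, and the ubiquitin ligase TRIM21. ISG15 (ENSG00000187608, chromosome 1, 1001138 to 1014541) had a promoter window with 2 overlapping ISRE matches, shown because this gene rose.
ISG15, chr1:1013369-1013414, plus strand: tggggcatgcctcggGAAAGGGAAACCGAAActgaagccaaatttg
ISG15 stood at 62.7, 69.2 and 64.8 CPM in control 1, 2 and 3 and at 99.97, 84.9 and 104 CPM in SAM 1, 2 and 3. All SAM libraries were above all controls, and SAM 2 was the closest to them. The fitted level with SAM was 1.47 times that in the controls, and the log2 fold change of 0.55 ± 0.11 had an adjusted p of 0.0149. The adjusted p was 0.0603 to 0.0925 without control 1, 2 or 3 or SAM 1. Once trends with GC content and length were removed from each library, the log2 fold change was 0.34 with an adjusted p of 0.0278. The other 6 genes of the group had log2 fold changes between -0.16 and 0.12. TRIM25, the next most abundant on a length-scaled basis at 76.4 TPM in the controls, stood at 202, 187 and 200 CPM in the controls and 164, 199 and 164 CPM with SAM (log2 fold change -0.16 ± 0.10, adjusted p = 0.320).

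**Figure D3:**
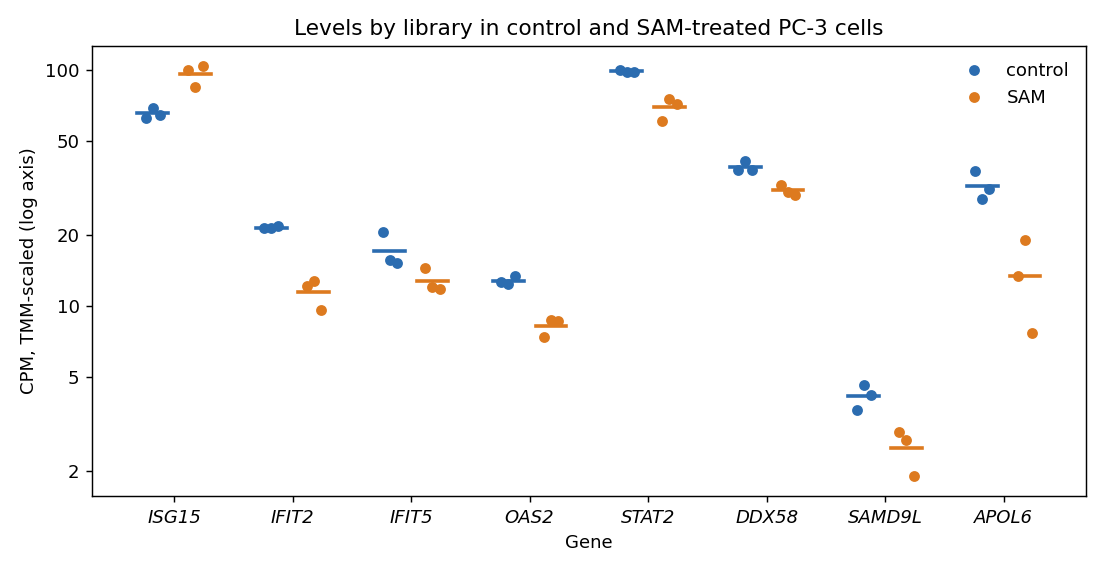
CPM per library (log axis) of the 7 genes that passed the test and of IFIT5, with points for the control (blue) and SAM (orange) libraries and a bar at each mean. The groups do not overlap in any of the 8 genes, and the SAM libraries of APOL6 spread most, from 7.72 to 19.1 CPM.

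Of the other interferon-inducible proteins, 1 of 7 tested genes was lower and none was higher, against 5.24% and 5.19% of all genes. Their median log2 fold change was 0.23. SAMD9L (ENSG00000177409, chromosome 7, 93130055 to 93148369), an antiviral factor that restrains translation and growth, stood at 3.65, 4.63 and 4.21 CPM in the controls and 2.93, 2.71 and 1.91 CPM with SAM. The groups were apart, but at these low levels the log2 fold change of -0.72 ± 0.20 only just passed (adjusted p = 0.0493). The adjusted p was 0.0619 to 0.186 without control 1, 2 or 3, SAM 1 or SAM 3. IFI44L was tight in both groups, at 8.15, 7.04 and 7.59 CPM in the controls and 10.1, 10.1 and 10.3 CPM with SAM, and its log2 fold change of 0.43 ± 0.13 missed the threshold (adjusted p = 0.0561). It passed without SAM 2 (adjusted p = 0.0497) and without SAM 3 (adjusted p = 0.0387). IFI6, an antiviral membrane protein named here after its values were seen, had the highest log2 fold change of the 46 genes, 0.63 ± 0.19, and also missed the threshold (adjusted p = 0.0583). It stood at 4.29, 4.81 and 3.38 CPM in the controls and 6.097, 5.67 and 7.46 CPM with SAM, and passed without SAM 2 (adjusted p = 0.0378). IFI35 stood at 12.4, 13.9 and 12.0 CPM in the controls and 15.2, 11.3 and 18.6 CPM with SAM, with overlap.

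PARP9, PARP12 and PARP14 belong to the ADP-ribosyltransferase family and are induced by interferon. None of the 3 passed the test. An unadjusted p under 0.05 was found for 66.7% of them, against 30.6% of all genes. The groups overlapped in none of the 3, while 36.7% of all genes had groups that did not overlap. PARP14 stood at 85.8, 72.8 and 81.3 CPM in the controls and 54.0, 70.3 and 49.6 CPM with SAM. Only SAM 2 came near the controls, and the log2 fold change of -0.47 ± 0.13 had an adjusted p of 0.0547. It was -0.62 (adjusted p = 0.00723) without SAM 2. PARP12 went the other way, at 24.99, 25.2 and 24.8 CPM in the controls and 27.8, 29.9 and 31.8 CPM with SAM (log2 fold change 0.25 ± 0.09, adjusted p = 0.102). PARP9 stood at 40.0 to 40.2 CPM in the controls and 33.5 to 37.6 CPM with SAM (log2 fold change -0.16 ± 0.09, adjusted p = 0.239). PARP9 overlaps DTX3L, the gene of its partner protein, in position.

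The apolipoprotein L genes on chromosome 22 encode lipid-binding proteins, of which APOL1 is the secreted trypanosome lytic factor. APOL6 (ENSG00000221963, chromosome 22, 35648395 to 35668409), an intracellular member linked to cell death, fell most of all 46 genes. It stood at 37.2, 28.5 and 31.2 CPM in control 1, 2 and 3 and at 13.4, 19.1 and 7.72 CPM in SAM 1, 2 and 3. The lowest control was above the highest SAM library, and the SAM libraries differed among themselves by more than the controls did. The fitted level with SAM was 0.414 of that in the controls, with a log2 fold change of -1.27 ± 0.25 and an adjusted p of 0.0165. The adjusted p was 0.0556 to 0.0922 without control 1, 2 or 3 or SAM 1. APOL2 stood at 11.2, 12.0 and 12.2 CPM in the controls and 14.4, 13.7 and 15.8 CPM with SAM, without overlap (log2 fold change 0.31 ± 0.12, adjusted p = 0.114).

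The lower genes were set beside their nearest relatives within each library, as 8 log2 ratios chosen after the values were seen. The ratio of IFIT2 to IFIT1 was lower with SAM by 1.18 log2 units, with 2.31, 1.98 and 2.42 in the controls and 1.13, 1.22 and 0.81 with SAM. The ratio of IFIT2 to IFIT3 differed by -0.59, OAS2 to OAS1 by -0.61, OAS2 to OAS3 by -0.49, SAMD9L to SAMD9 by -0.55 and APOL6 to APOL2 by -1.66 log2 units. In these 6 ratios the groups did not overlap. The ratios of IFIT2 to IFIT5 and APOL6 to APOL3 overlapped between the groups (differences of -0.49 and -1.38 log2 units). The numerators were chosen because they were called lower, which favours lower ratios, so the ratios are a description without a test.

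In the RefSeq windows the ISRE letters were found in 22 of the 36 genes with an entry, or 61.1%, against 3.65% of all 27303 RefSeq promoters and 2.71% of the 10760 promoters of tested genes. The palindromic gamma-activated sequence, searched as TTCNNNGAA, was found in 10 of the 36, or 27.8%, against 7.88% of all promoters, and in 3 genes it overlapped an ISRE match. Of the lower genes 3 had an entry, DDX58, STAT2 and SAMD9L, and none of these 3 windows held an ISRE match. IFIT2, OAS2 and APOL6 had no entry and were not searched. The last 60 bases before the start site of each are given, 5′ to 3′ on the strand of the gene. This is a fixed stretch, whereas the IFIT and ISG15 stretches above were cut around their matches.
DDX58, chr9:32526197-32526256, minus strand: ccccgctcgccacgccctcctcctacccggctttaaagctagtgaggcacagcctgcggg
STAT2, chr12:56360108-56360167, minus strand: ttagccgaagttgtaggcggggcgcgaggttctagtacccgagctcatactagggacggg
SAMD9L, chr7:93148386-93148445, minus strand: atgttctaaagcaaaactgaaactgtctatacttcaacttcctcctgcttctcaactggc
The absence of a match says only that these exact letters are not in the window, and near matches were not searched. The tested genes with a match had log2 fold changes from -0.47 to 0.63 with a median of -0.04 (22 genes), and those with a window but no match from -0.72 to 0.33 with a median of -0.14 (12 genes). The median number of CpG dinucleotides in the windows was 10 in the listed genes and 26 in the promoters of tested genes. DNA methylation was not measured in these libraries.

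Signalling genes around the list were described from a second list of 78 genes in the table, of which 65 were tested. In this list 2 genes were higher and 6 were lower, and 12.3% were called against the 10.4% over all genes. An unadjusted p under 0.05 was found for 24 of the 65, or 36.9%, against 30.6% of all genes. The 5 listed interferon genes were too low to be tested. IFNB1 had at most 2 counts in any library, IFNL1 and IFNL2 at most 1, and IFNL3 none, each at or below the floor of 3 counts, while IFNE stood at 0.132 to 1.07 CPM. Of the 14 tested receptor and signalling genes 1 was higher and none was lower, against 5.19% and 5.24% of all genes. SOCS1, a feedback inhibitor of the JAK kinases, rose from 0.107, 0.454 and 0.539 CPM to 1.76, 0.761 and 1.32 CPM, levels close to the counting floor (log2 fold change 1.69 ± 0.42, adjusted p = 0.0337). SOCS1 was called in 12 of the 17 alternatives that tested it, and not in the fits lacking control 1, 2 or 3 or SAM 1 (adjusted p as high as 0.169) or with limma on the normalised signal. STAT3 had 0 counts in all 6 libraries, and PC-3 cells are known to lack this gene.

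Among the 34 tested effectors of the second list 3 were lower and none was higher, against 5.24% and 5.19% of all genes. GBP2, an interferon-induced guanylate-binding GTPase, stood at 18.02, 16.3 and 15.4 CPM in the controls and 7.06, 8.54 and 9.90 CPM with SAM. Its groups were far apart, and the log2 fold change of -0.97 ± 0.15 (adjusted p = 0.00716) was called in all 20 alternative settings. SLFN5 stood at 131, 114 and 120 CPM in the controls and 68.1, 91.6 and 61.5 CPM with SAM (log2 fold change -0.73 ± 0.15, adjusted p = 0.0173). The membrane protein PLSCR1 had a log2 fold change of -0.40 ± 0.09 (adjusted p = 0.0232). Of the kinases, adaptors and further factors of sensing 3 of 9 were lower, against 5.24% of all genes. Among them were TANK (log2 fold change -0.40 ± 0.08, adjusted p = 0.0199) and AZI2 (log2 fold change -0.46 ± 0.11, adjusted p = 0.0290), both scaffolds of the kinase TBK1. The calls of SLFN5, PLSCR1, TANK and AZI2 were lost in the fits lacking control 1, 2 or 3 or SAM 1 (adjusted p as high as 0.142). Those of PLSCR1 and TANK were also lost with a replicate block, that of AZI2 with thinned counts, and all 3 without control 1 and SAM 2 together. For DNA sensing, MB21D1, which encodes cGAS, and TMEM173, which encodes STING, had log2 fold changes of 0.13 ± 0.12 (adjusted p = 0.485) and -0.34 ± 0.16 (adjusted p = 0.180). The nuclease gene TREX1 had a log2 fold change of -0.07 ± 0.20 (adjusted p = 0.839), and RNASEH2C, a subunit of RNase H2, was the higher gene of that group of 8, called in 13 of the 20 alternatives.

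GC content moved with the changes. Over the 46 genes the log2 fold change and the GC content of the longest annotated transcript had Pearson's r = 0.53 and Spearman's rho = 0.57, as a description over genes that share the same 6 libraries. Without SAM 3, the library with the GC slope, r was 0.35 and rho 0.38. Over 14882 genes r was 0.13 with all libraries and -0.0027 without SAM 3. The 6 lower genes had GC contents of 38.5 to 51.0%, ISG15 had 63.4%, and the median of the 39 genes that were not called was 50.5%. With the GC and length trends of each library removed, IFIT2, OAS2, STAT2, SAMD9L and APOL6 were still called lower and ISG15 higher, DDX58 was not called (adjusted p = 0.0677), PARP14 was called lower, and PARP12 and IFI44L were called higher. The median log2 fold change of the 46 genes was then 0.01, against 0.02 over all genes. Over the 46 genes the relation to GC content remained in that setting, with r = 0.38 and rho = 0.43. Over 14882 genes r was then -0.0009.

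**Figure D4:**
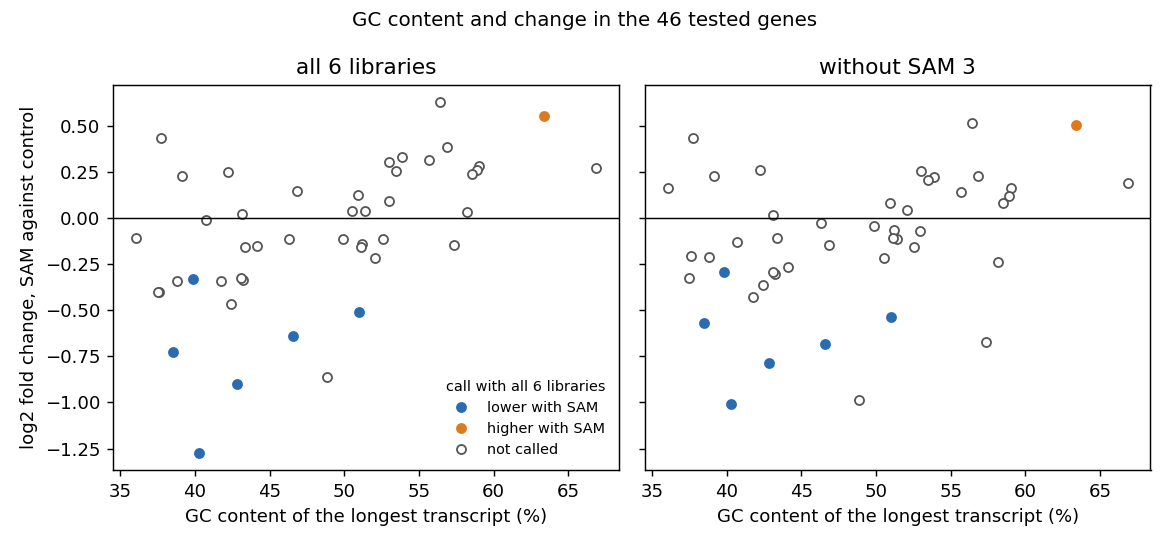
GC content of the longest transcript (%) against log2 fold change of SAM over control for the 46 tested genes, with all 6 libraries (left) and without SAM 3 (right), coloured by the call with all libraries. Pearson's r is 0.53 on the left and 0.35 on the right, and the lower genes (blue) lie at 38.5 to 51.0% GC.

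The 7 calls differed in how many alternative settings kept them. IFIT2 alone was called in every one of the 20 alternatives. ISG15, OAS2, STAT2 and APOL6 were called in 16 of them, all but the fits without control 1, control 2, control 3 or SAM 1. In each of those 4 fits IFIT2 was the single gene of the list that was called. Calls over all genes also fell there, from 1598 to 255, 222, 139 and 215 in that order. SAMD9L was called in 10 and DDX58 in 7 of the 20. Without SAM 2, 3233 of all genes were called, against 1598 with all libraries. The list then had 6 higher genes, IRF3, IFI6, IFI44L, IFITM3, IFITM2 and ISG15. Its 8 lower genes were OAS2, IFIH1, IFIT2, DDX60, STAT2, PARP14, SAMD9L and APOL6. Without control 1 and SAM 2 together, 954 of all genes were called. In the list ISG15 was then higher and 5 genes were lower, namely OAS2, IFIT2, STAT2, PARP14 and APOL6. None of the 7 genes changed direction in any of the 20 alternatives.

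**Figure D5:**
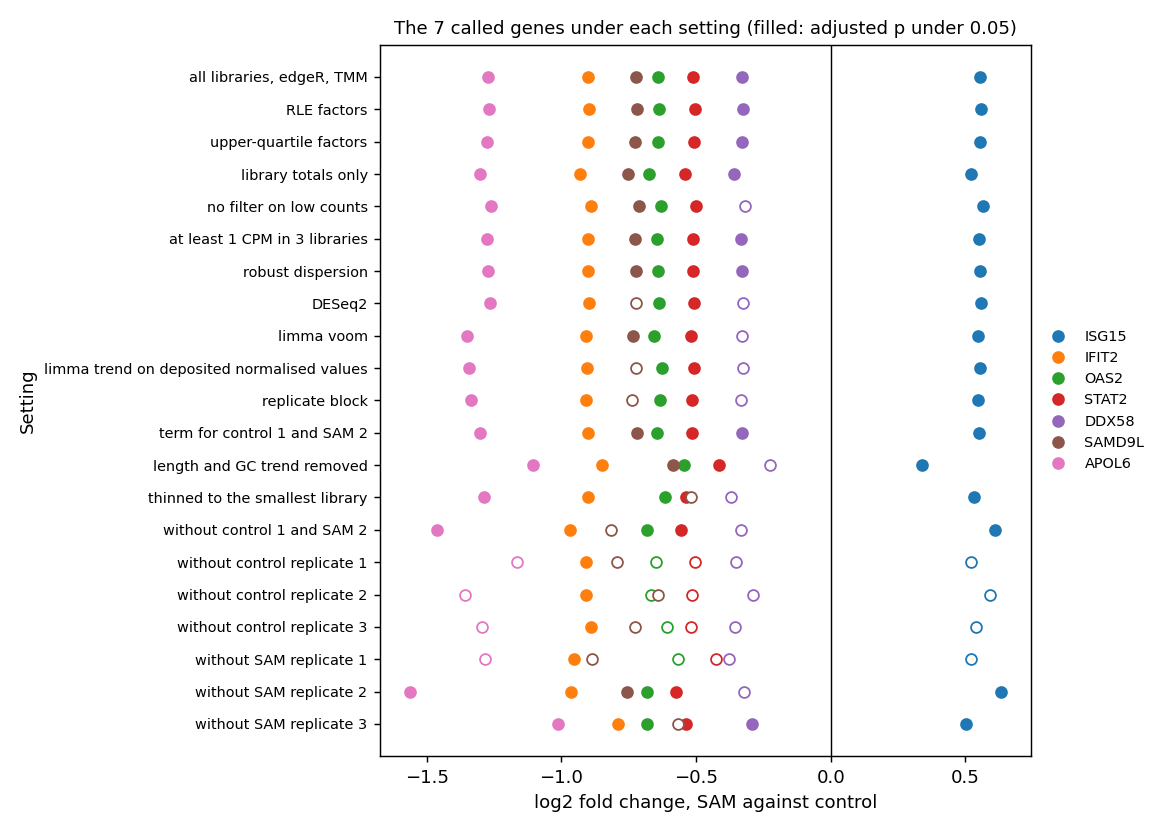
Log2 fold change of SAM against control (x axis) for the 7 called genes under the main fit and 20 alternative settings (y axis), filled where the adjusted p was under 0.05 and open where it was not. IFIT2 is filled in every row, and only IFIT2 is filled in the rows without control 1, 2 or 3 or SAM 1.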

How the data were processed

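RNA from a Peq-Gold kit was made into TruSeq libraries and read on a HiSeq2000, per the labels. The paper's methods differ from these labels in SAM dose, kit, instrument and reference, and the labels were followed. Decitabine-treated samples were not analysed here. The tools named in the submitters' processing notes, whose roles are not given there, are STAR 2.4, HTSeq 0.6.1, SAMtools 0.1.19, DESeq2 1.8, CASAVA 1.8.2 and FastQC 0.10.0, with the builds hg19 and mm10. The authors deposited raw counts per Ensembl gene, used for all main results, and a normalised signal, in which each library's counts are divided by its size factor (0.562 to 1.75) and which served 1 alternative. The deposited coordinates are those of GRCh38: 99.9% of 51488 identifiers shared with GENCODE release 44 overlap the same gene there. The sources used here do not say if counting used strand.

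The 50 genes, the second list and the markers were chosen with earlier results of these data known. Genes passing edgeR's expression filter (15312) were scaled by TMM and fitted with edgeR 4.0.16 in R 4.3.3 (quasi-likelihood test, group as the only term, 6 libraries), with Benjamini-Hochberg adjustment over all of them and a threshold of 0.05. The SE was obtained from the log2 fold change and the F statistic (their ratio after taking the root of F). CPM values are TMM-scaled. TPM values used the GENCODE canonical transcript length. The transcript lengths in the authors' tables were implausibly short for some genes and were not used. Genes named with values were the called ones, IFIT2, IFIT5 and ISG15, and in each role group the 2 of smallest p and the one of highest length-scaled control level. Exceptions are stated where they occur, and the relatives in the within-library ratios, IFIT3, OAS1 and OASL were also named after their values were seen. Of the second list, the 6 called genes of smallest p and MB21D1, TMEM173 and TREX1 have values, and the interferons, STAT3 and RNASEH2C were added. Some genes of the lists are not reported here. On simulated counts (15312 genes) the fit found 32.8% of the 67 true changes of 1.5-fold, 76.1% of the 67 of 2-fold and 95.5% of the 66 of 4-fold, and unchanged genes made up 3.55% of its calls. No pair of libraries of a group agreed within sampling noise (chi-square per degree of freedom 4.57 to 55.2), so none were merged. Alternatives were other scalings and filters, DESeq2 1.42.0, limma 3.58.1, thinned counts, a replicate block, a term for control 1 and SAM 2, left-out libraries, and removal of GC and length trends, the last chosen after the data were seen.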

Additional observations from a re-analysis of the deposited data

How the results depend on the processing

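The main fit called 1 higher and 6 lower genes of the list, 2 higher and 6 lower genes of the second list, and 1598 of all genes. For the list, the higher count was 3 with no filter on low counts, 3 with a term for control 1 and SAM 2, 3 with GC and length trends removed, 2 with thinned counts, 2 with DESeq2, 2 with limma voom and 0 at an adjusted p under 0.01, where the lower count was 1. For the second list, the higher count was 1 with library totals only, 1 with the filter of 1 CPM, 1 without control 1 and SAM 2, 1 with thinned counts, 1 with limma on the normalised signal, 4 with the term for control 1 and SAM 2, 9 with the trends removed and 0 at 0.01. Its lower count was 3 without control 1 and SAM 2 and 1 at 0.01. All genes called numbered 2743 with no filter, 2502 with the term, 954 without control 1 and SAM 2, 253 at 0.01 and 2881 with the trends removed. The cause of these differences was not tested. Leaving out 1 library at a time gave 0 to 6 higher and 1 to 8 lower genes of the list, 0 to 7 and 1 to 9 of the second list, and 139 to 3233 of all genes. Over all genes, dropping control 1, 2 or 3 left 255, 222 or 139 calls, and dropping SAM 1, 2 or 3 left 215, 3233 or 2499. Over 39 genes named with values, 73 values fell short of the threshold that the main fit passed (12 genes), 27 passed it where the main fit did not (9 genes), and 15 changed direction (6 genes), none of them called with either sign. The log2 fold change of OAS1 was 0.0025 with no filter, 0.12 without control 1 and SAM 2, 0.0053 with thinned counts and 0.16 with the trends removed. With the trends removed ADAR was at 0.00071 and OAS3 at 0.0025, and with thinned counts OASL was at -0.22. Leaving out 1 library gave -0.46 to 0.042 for MAVS, -0.13 to 0.10 for OAS1, -0.12 to 0.14 for OASL and -0.31 to 0.044 for TREX1. The 4 untested genes had 2 to 24 counts over all libraries, and the self-test recovered 32.8% of 1.5-fold changes in simulated, independent libraries.

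Deviations from the group means had r = -0.17, -0.40 and 0.13 between libraries with the same number. Between control 1 and SAM 2 r was 0.45. With 3 libraries per group these values cannot decide whether the numbers pair the libraries. The main fit did not pair them. With the replicate block the list had 1 higher and 4 lower genes, the second list 1 and 3, and 1028 of all genes were called.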
